A study of Mus musculus with 21 samples.

Results

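Left ventricles of banded mice that received 20 min of low-level vagus nerve stimulation a day from week 1 (VNS20_1w) were set against left ventricles of mice with banding alone (AB), across all genes of a bulk RNA-seq count table. The libraries were chosen by their labels and are 6 of 21, 3 for each group, each labelled as a separate biological replicate. The mice of all groups were male wild-type C57BL/6, operated on when 8 weeks old and sampled at week 8 after the operation. VNS20_1w mice had the ascending aorta constricted and carried a biodegradable triboelectric nanogenerator with a cuff on the left cervical vagus, which delivered 4 µA at 2 Hz for 7 weeks. AB mice had the constriction with no device and no therapy. The comparison therefore holds the device and the stimulation together, and the share of each cannot be told apart in it. The other groups, used here only as values beside the results, were stimulated for 20 min from week 2 (VNS20_2w) or week 4 (VNS20_4w) or for 10 min from week 1 (VNS10_1w), carried a device from week 1 that was left off (AB_Implant), or had the operation without constriction (Sham).

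Constriction of the aorta raises the load on the left ventricle, which thickens and switches on a stress programme that includes natriuretic peptides, fetal contractile proteins and immediate early transcription factors. The vagus nerve slows the heart through acetylcholine acting on muscarinic receptors, and its stimulation is also known for damping inflammation. Random fragmentation, priming and amplification in library preparation recover GC-rich sequence unevenly, so the base composition of genes that differ between groups is a usual companion measurement.

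The 6 libraries held 11577509 to 16574253 counts, of which 39.7% to 55.3% fell on the 13 mitochondrially encoded genes, with AB inside the VNS20_1w range. Among these 6, VNS20_1w replicate 2 stood apart. Its counts rose with transcript length by 0.378 log2 units per log2 of length, against -0.051 and -0.182 in VNS20_1w replicates 1 and 3 and -0.233 to 0.038 in the AB libraries. Its GC slope was -0.436 log2 units per 10 points of GC content, against -0.00 and 0.08 in the other VNS20_1w libraries and 0.35, 0.25 and -0.07 in the AB libraries. Similar length and GC slopes occurred in VNS20_2w replicate 1 (0.391 and -0.388) and VNS10_1w replicate 2 (0.365 and -0.342). The heart identity of all 6 libraries was clear, since 10 of 10 cardiomyocyte markers were detected, with a summed level of 55361 to 98245 CPM (counts scaled to library total and a TMM factor) in VNS20_1w and 63030 to 91066 CPM in AB.

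In VNS20_1w hearts, 15 genes rose and 20 fell against AB (edgeR quasi-likelihood test with all 21 libraries in the fit, Benjamini-Hochberg adjusted p under 0.05), which is 0.289% of 12100 tested genes, 0.124% higher and 0.165% lower. The 15 rises were genes known from the liver, led by the vitamin D binding protein Gc, the cytochrome P450 Cyp2c29 and serum albumin Alb. The 20 falls held transcription factors (Cebpb, Jund, Nkx2-5, Tcf15), RNA-binding proteins (Hnrnpa0, Pabpn1), the histone variant H2afx and the neurotrophic factor Nrtn. In all 35 the 3 VNS20_1w libraries lay on one side of the 3 AB libraries, a pattern that 3.25% of all tested genes showed upward and 4.17% downward. The median log2 fold change of all tested genes was 0.05, and 55.3% of them had a positive fold change. At an unadjusted p under 0.05 there were 197 higher genes (1.63%) and 323 lower genes (2.67%). Without VNS20_1w replicate 2 the test called 10 genes, namely Gc, Cyp2c29, Alb, Cyp3a11, Fabp1 and Kng1 higher and Hnrnpa0, Gm9887, Mrfap1 and Cebpb lower, and these 10 were also called when any other of the 6 libraries was left out.

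**Figure D1:**
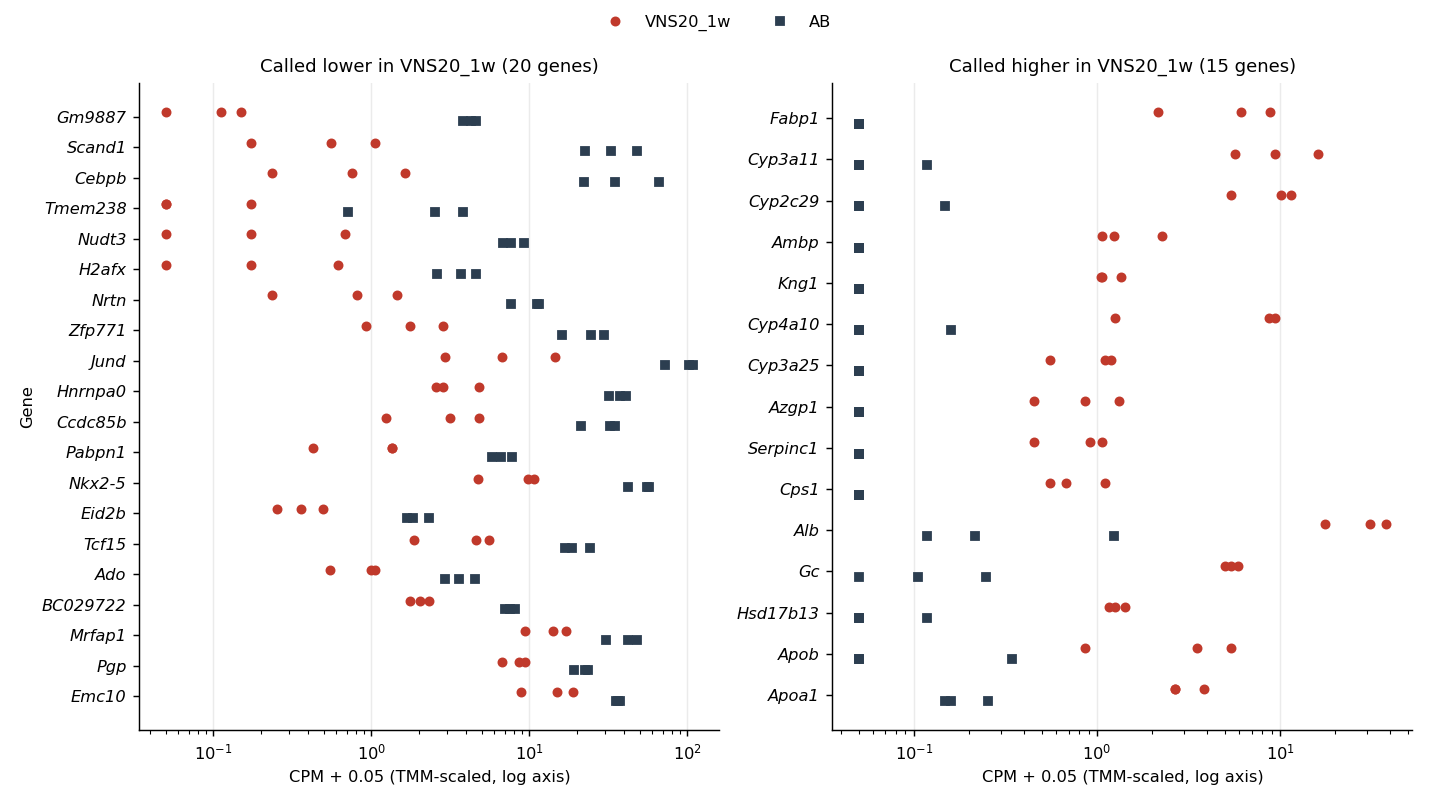
TMM-scaled CPM plus 0.05 on a log axis for every gene called lower (left) and higher (right), with 3 VNS20_1w libraries as circles and 3 AB libraries as squares on each row. The circles and squares of a row do not overlap in any gene, and on the right most AB squares sit at the left edge, where the level is 0.

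Plasma carriers were among the rises. On GRCm38 the leading genes lie as follows: Gc (ENSMUSG00000035540) at chr5:89417522-89457898 on the minus strand, Alb (ENSMUSG00000029368) at chr5:90460897-90476602 on the plus strand and Cyp2c29 (ENSMUSG00000003053) at chr19:39269405-39330713 on the plus strand. Alb had 37.9, 30.8 and 17.6 CPM in VNS20_1w, against 0.069, 1.18 and 0.166 CPM in AB. Its lowest VNS20_1w library was far above its highest AB library, and from the summed counts (1269 in VNS20_1w, 16 in AB) Alb was 81.3 times as high in VNS20_1w (95% counting interval 49.9 to 143, which covers counting error only). Gc, which binds vitamin D and actin in plasma, had 5.87, 5.36 and 4.94 CPM in VNS20_1w, against 0, 0.197 and 0.055 CPM in AB (log2 fold change with its SE 6.07 ± 0.61, adjusted p = 0.00034). Its VNS20_1w libraries lay close together, at a mean of 5.39 ± 0.469 CPM (SD, n = 3). Fabp1, the fatty acid binding protein of hepatocytes, had 6.06, 8.78 and 2.12 CPM in VNS20_1w and 0 counts in every AB library. Taking 3 counts over the AB group as the floor, Fabp1 was at least 88.1-fold higher (adjusted p = 0.00598).

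Of the rises, 4 encode cytochrome P450 enzymes, which oxidise drugs, steroids and fatty acids (Cyp3a11, Cyp2c29, Cyp4a10 and Cyp3a25). Cyp3a11 had 16.1, 9.34 and 5.64 CPM in VNS20_1w, against 0.069, 0 and 0 CPM in AB (adjusted p = 0.00378). Cyp2c29 had 10.1, 11.5 and 5.34 CPM in VNS20_1w, against 0, 0.099 and 0 CPM in AB (adjusted p = 0.000682). Each had 1 count in the whole AB group, so the ratio of summed counts is loosely bounded, at 472 (84.4 to 18700) for Cyp3a11 and 407 (72.6 to 16109) for Cyp2c29. Cyp4a10, a fatty acid hydroxylase, was high in VNS20_1w replicates 1 and 2 at 8.65 and 9.28 CPM and lower in replicate 3 at 1.21 CPM, against 0, 0 and 0.11 CPM in AB. Cyp3a25 had 1.14, 1.06 and 0.504 CPM in VNS20_1w and 0 counts in AB, at least 13.7-fold higher. These families hold close copies, so reads of one member could have been counted for another, and Cyp2c29 overlaps a pseudogene on the same strand.

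The other rises were transcripts of secreted plasma proteins and liver metabolism at a few CPM or less. Apob, the structural protein of low-density lipoprotein, had 5.37, 3.49 and 0.806 CPM in VNS20_1w, against 0, 0.296 and 0 CPM in AB. Apoa1, the main protein of high-density lipoprotein, had 3.79, 2.62 and 2.62 CPM in VNS20_1w, against 0.206, 0.099 and 0.11 CPM in AB, the smallest of the 15 fold changes (4.35 ± 0.89, adjusted p = 0.0457). Kng1 (kininogen, the source of bradykinin), Ambp (precursor of a plasma protease inhibitor), Cps1 (the entry enzyme of the urea cycle), Azgp1 (a zinc-binding plasma glycoprotein) and Serpinc1 (antithrombin) had 0 counts in AB and means of 0.731 to 1.47 CPM in VNS20_1w, at least 10.9-fold (Cps1) to 19.5-fold (Ambp) higher. Hsd17b13, a lipid droplet enzyme, averaged 1.23 ± 0.133 CPM in VNS20_1w and 0.0229 ± 0.0396 CPM in AB (SD, n = 3). Serpinc1 overlaps annotated genes on both strands, and the counts give no strand.

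A list of 42 hepatocyte markers, all in the table, had 31 tested members, of which 11 rose and 0 fell, with a median log2 fold change of 3.66 against 0.05 for all tested genes. Of the 31, 29 had a positive fold change, against 55.3% of all tested genes, and the exceptions were Ass1 and Trf. A member near 0 in AB was tested only if other groups lifted it past the filter of 1 CPM in 3 libraries. These counts and the median therefore follow in part from the filter. The 11 members that failed it held 111 counts in VNS20_1w and 33 in AB, and 9 of them had more counts in VNS20_1w. DESeq2 called 15 of the 31, and limma voom with sample weights 4 (Gc, Kng1, Ambp and Cps1). The heart expresses some of the list, since 7 members averaged at least 1 CPM in AB. The summed level of the list was 91.1 to 149 CPM in VNS20_1w and 13.9 to 27.2 CPM in AB, and 1 member in VNS20_1w and 10 in AB had 0 counts in every library. Increases were uneven within the list. Ttr, the thyroxine carrier transthyretin, named after its values were seen, had 1.64, 2.30 and 1.31 CPM in VNS20_1w, against 0.48, 1.68 and 0.331 CPM in AB (1.15 ± 0.65, adjusted p = 0.974), with overlapping groups. Whether liver RNA or another source gave these reads was not tested, and in bulk tissue more cells of a type and more RNA per cell cannot be told apart.

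The 15 genes were also high in the other stimulated groups. Summed over the 15 genes, the level was 46.5 to 101 CPM in VNS20_1w, 39.0 to 87.7 CPM in VNS20_2w, 73.0 to 134 CPM in VNS20_4w and 37.2 to 107 CPM in VNS10_1w, against 0.067 to 0.378 CPM in AB_Implant, 0.411 to 1.87 CPM in AB and 0.251 to 0.654 CPM in Sham. No stimulated library overlapped an unstimulated one in this sum, and the stimulated groups overlapped each other. The 15 genes were chosen as higher in VNS20_1w than in AB, so the separation of those 2 groups follows from the choice. Being near 0 in the unstimulated groups, they also passed the filter of 1 CPM in 3 libraries through stimulated libraries. Cps1, at 0.632, 1.06 and 0.504 CPM in VNS20_1w, needed other stimulated groups to pass it. High levels in those groups therefore follow in part from the filter. The log2 fold changes of VNS20_1w over VNS10_1w ran from -0.87 to 1.40 for these genes. Cyp2c29 varied between the stimulated groups, at 10.1, 11.5 and 5.34 CPM in VNS20_1w, 1.67, 2.41 and 10.9 CPM in VNS20_2w and 1.09, 0.675 and 0.829 CPM in VNS20_4w.

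The promoter of Alb is shown as an example of the regulatory sequence of these genes, as the 250 bases before its start (RefSeq, GRCm38.p6, chr5:90460620-90460869, plus strand), with the letters GTTAAT, a half-site of the liver factor HNF1, in capitals.

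Alb: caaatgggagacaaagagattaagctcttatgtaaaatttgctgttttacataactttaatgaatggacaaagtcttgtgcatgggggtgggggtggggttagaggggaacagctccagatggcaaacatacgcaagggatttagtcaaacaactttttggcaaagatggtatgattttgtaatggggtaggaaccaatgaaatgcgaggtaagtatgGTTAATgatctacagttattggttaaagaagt

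Promoters were matched for 12 of the 15 rises and 16 of the 20 falls, and both strands were searched. GTTAAT was present in 3 of the 12 (Alb, Fabp1, Gc) and 0 of the 16, and in 6.43% of 32851 promoters of the same length. TTGCNNAA, the core read by C/EBP factors, was in 4 of the 12 (Alb, Apob, Cyp3a25, Fabp1), 2 of the 16 (Ccdc85b, Jund) and 9.56% of all promoters. GGGCGG, the GC box, was in 1 of the 12, 12 of the 16 and 32.7% of all promoters. Median promoter GC content was 44.6% for the rises, 64.4% for the falls and 52.4% for all promoters.

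Cebpb, Jund and Nkx2-5, all transcription factors, were among the falls. On GRCm38, Cebpb (ENSMUSG00000056501) at chr2:167688915-167690418 on the plus strand and Jund (ENSMUSG00000071076) at chr8:70698949-70700616 on the plus strand are single-exon genes, and Nkx2-5 (ENSMUSG00000015579) at chr17:26838664-26845009 on the minus strand has 2 exons. Cebpb, which drives inflammatory and stress transcription, had 1.58, 0.187 and 0.705 CPM in VNS20_1w, against 65.8, 34.9 and 22.3 CPM in AB. Its highest VNS20_1w library was far below its lowest AB library (-5.61 ± 0.85, adjusted p = 0.00511, 48.8-fold lower). Jund, a subunit of the AP-1 complex, had 14.4, 2.86 and 6.65 CPM in VNS20_1w, against 109, 102 and 71.9 CPM in AB (-3.56 ± 0.61, adjusted p = 0.014). Nkx2-5, the homeobox factor that specifies heart muscle, had 10.7, 4.67 and 9.77 CPM in VNS20_1w, against 57.2, 55.9 and 42.3 CPM in AB (-2.63 ± 0.46, adjusted p = 0.017). In Jund and Nkx2-5 the lowest VNS20_1w library was replicate 2, the one that stood apart, and neither was called without it. Other omissions also removed these calls, since of 6 fits with 1 library left out Jund was called in 3 and Nkx2-5 in 1.

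Scand1, a SCAN domain protein, had 0.505, 0.125 and 1.01 CPM in VNS20_1w, against 32.9, 48.1 and 22.4 CPM in AB (-6.08 ± 1.08, adjusted p = 0.017). From 20 counts in VNS20_1w and 1373 in AB, Scand1 was 67.0-fold lower (95% counting interval 43.2 to 110). Zfp771, a zinc finger protein, had 2.78, 0.872 and 1.71 CPM in VNS20_1w, against 24.5, 29.7 and 16.1 CPM in AB, and Tcf15, a basic helix-loop-helix factor, had 4.55, 1.81 and 5.54 CPM in VNS20_1w, against 16.7, 24.3 and 18.6 CPM in AB. Eid2b, of a family that inhibits differentiation factors, and Ccdc85b, a coiled-coil repressor, were 5.69-fold and 10.0-fold lower. Cebpb, Jund, Scand1 and Ccdc85b each overlap a gene on the opposite strand (Tmem189, Gm11175, Cnbd2 and Fosl1), whose reads the counts may not separate.

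Hnrnpa0, an RNA-binding protein which binds AU-rich messages, had 4.74, 2.80 and 2.52 CPM in VNS20_1w, against 41.0, 37.7 and 31.7 CPM in AB (-3.44 ± 0.42, adjusted p = 0.000682), the smallest p among the falls. Pabpn1, the nuclear poly(A) binding protein, had 0.379, 1.31 and 1.31 CPM in VNS20_1w, against 7.68, 5.72 and 6.62 CPM in AB. H2afx, the histone variant that marks DNA breaks, had 0.568, 0.125 and 0 CPM in VNS20_1w, against 4.52, 3.65 and 2.54 CPM in AB. Here 11 counts in VNS20_1w stood against 149 in AB, and the groups did not overlap. Mrfap1, a small nuclear protein, had 17.1, 14.1 and 9.37 CPM in VNS20_1w, against 42.1, 30.4 and 47.9 CPM in AB (-1.57 ± 0.24, adjusted p = 0.00511), a modest fold with a small error.

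The remaining falls had mixed functions. Nrtn, neurturin, a ligand that keeps parasympathetic neurons alive, had 0.758, 0.187 and 1.41 CPM in VNS20_1w, against 11.2, 11.5 and 7.62 CPM in AB (-3.75 ± 0.72, adjusted p = 0.0299). All 3 VNS20_1w libraries were below 2 CPM, 29 counts in all against 418 in AB. Nudt3, an inositol pyrophosphate hydrolase, had 0.632, 0.125 and 0 CPM in VNS20_1w, against 9.25, 6.80 and 7.62 CPM in AB, and shares its locus with a read-through gene on the same strand. Pgp (a phosphatase of glycolytic by-products), Emc10 (a subunit of the endoplasmic reticulum membrane complex) and Ado (a thiol dioxygenase) fell by 1.40, 1.36 and 2.15 on the log2 scale. Tmem238, a membrane protein, had 2 counts in VNS20_1w and 92 in AB, 44.9-fold lower (12.1 to 376). The 2 called genes without a symbol of their own, named after their values were seen, were Gm9887 (2 counts in VNS20_1w, 177 in AB, opposite Arf6) and BC029722 (2.27, 1.99 and 1.71 CPM in VNS20_1w, against 7.54, 8.08 and 7.01 CPM in AB, opposite Mmp24).

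The falls were richer in GC than the rises at the median, with overlapping ranges (exon GC content of 48.3% to 74.2% in the falls and 40.1% to 56.2% in the rises). The falls had a median GC content of 60.0% over all exons and 70.3% in coding sequence, and the rises 45.9% and 48.6%, against 49.5% and 53.1% for all tested genes. Of the 20 falls, 15 lay in the GC-richest of 5 equal classes of tested genes (exon GC content of 55.2% or more), and 1 of the 15 rises did. To show what this means in letters, the 100 coding bases of highest GC content are given for 5 falls and for the first 2 rises (GENCODE M21, GRCm38, written along the coding strand), with runs of at least 6 consecutive G or C in capitals. The windows lie at chr13:58127678-58127777 (minus) for Hnrnpa0, chr8:70699626-70699725 (plus) for Jund, chr2:167689552-167689651 (plus) for Cebpb, chr17:26839133-26839232 (minus) for Nkx2-5 and chr2:156312215-156312314 (minus) for Scand1, and at chr5:89443484-89443583 (minus) for Gc and chr19:39324934-39325033 (plus) for Cyp2c29.

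Hnrnpa0: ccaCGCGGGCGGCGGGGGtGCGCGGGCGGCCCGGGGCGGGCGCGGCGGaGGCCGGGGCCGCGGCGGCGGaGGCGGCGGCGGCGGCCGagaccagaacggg
Jund: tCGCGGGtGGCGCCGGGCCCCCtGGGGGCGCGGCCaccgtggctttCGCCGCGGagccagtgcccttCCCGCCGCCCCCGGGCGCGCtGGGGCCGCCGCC
Cebpb: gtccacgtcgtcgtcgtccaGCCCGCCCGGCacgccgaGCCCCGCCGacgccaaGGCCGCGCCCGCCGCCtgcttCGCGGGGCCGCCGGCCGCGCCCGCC
Nkx2-5: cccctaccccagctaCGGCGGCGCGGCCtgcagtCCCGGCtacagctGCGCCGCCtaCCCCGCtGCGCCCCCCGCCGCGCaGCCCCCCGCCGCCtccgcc
Scand1: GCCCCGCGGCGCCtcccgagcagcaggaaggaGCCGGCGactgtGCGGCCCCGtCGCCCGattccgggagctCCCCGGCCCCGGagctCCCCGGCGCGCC
Gc: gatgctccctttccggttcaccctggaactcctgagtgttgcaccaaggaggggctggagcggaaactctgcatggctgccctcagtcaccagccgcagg
Cyp2c29: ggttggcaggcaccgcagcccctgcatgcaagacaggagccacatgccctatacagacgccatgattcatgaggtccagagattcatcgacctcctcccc

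These windows hold 91% GC in Hnrnpa0, 86% in Jund, 85% in Cebpb, 83% in Nkx2-5 and 82% in Scand1, but 62% in Gc and 59% in Cyp2c29, where no run of 6 occurs. Over the 20 falls the richest window had a median of 81%, over the 15 rises 61% and over all tested genes 67%. A window of at least 75% was present in 19 of 20 falls (all but Nudt3), 0 of 15 rises and 17.3% of tested genes. The falls were also short genes of few exons. Of the 20, 8 were single-exon and 15 had 1 or 2 exons, as did 6.52% of tested genes, and their median exonic length was 1694 bases against 4486 for all tested genes. None of the 15 rises had fewer than 4 exons.

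The same direction ran through genes that were not called. Across these 5 classes of exon GC content, from poorest to richest, the median log2 fold change of tested genes was 0.27, 0.17, 0.07, -0.06 and -0.21. A further split by exon number and richest window used limits set after the falls were seen, and is a description with no test. The 224 tested genes with 1 or 2 exons and a window of at least 75% had a median of -0.63, and 84.4% of them were negative. Of all tested genes, 55.3% were positive. The 1865 genes with such a window but 3 or more exons had a median of -0.09, the 553 with 1 or 2 exons and no such window -0.01, and the remaining 9436 a median of 0.08. Without the 15 that were called, 174 of the other 209 genes of the first class were still negative (median -0.54). Without VNS20_1w replicate 2 the median of the first class was -0.60, so it was about as large without that library.

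By library, the median deviation of this class of 224 genes from the mean of 21 libraries was -0.23, -0.52 and -0.39 log2 units in VNS20_1w, against 0.28, 0.26 and 0.21 in AB. The libraries of the 2 groups were separate by this measure. The limits of the class came from the falls called in these same libraries, and it holds 15 of them, so the separation is no independent result. The values were -0.43, -0.00 and -0.04 in VNS20_2w, 0.23, 0.08 and -0.02 in VNS20_4w, 0.13, 0.07 and 0.23 in VNS10_1w, 0.11, 0.11 and 0.07 in AB_Implant, and -0.16, -0.03 and 0.17 in Sham. The part of GC content in the falls was examined by fits with an offset that removes each library's smooth trend on GC content, under which 10 of the 20 falls and 7 of the 15 rises were still called. The falls that kept their call were Hnrnpa0, Gm9887, Mrfap1, Cebpb, Jund, Nudt3, Scand1, H2afx, Tmem238 and Pabpn1. With an offset on the GC content of the richest window, added after seeing the data, 5 falls kept it, namely Hnrnpa0, Gm9887, Mrfap1, Cebpb and Nudt3. Among the falls that lost their call under the window offset, Scand1 had a log2 fold change of -5.97 with it and -6.08 as reported, Jund -3.40 with it and -3.56 as reported, and Nkx2-5 -2.43 with it and -2.63 as reported. Under the GC offset the log2 fold change was -4.67 for Cebpb, -3.38 for Hnrnpa0 and -2.66 for Jund, which kept their calls. Of the falls that lost it, Nkx2-5 had -1.81 and Nrtn -2.17, smaller than the -2.63 and -3.75 as reported, while Eid2b had -2.59 and Ado -2.21, close to the -2.51 and -2.15 as reported. With GC and length offsets together, 24 of the 35 genes kept their call. Nkx2-5 (-1.79), Nrtn (-2.25) and Eid2b (-2.49) were called in that fit, while Ado (-2.22) and Gm9887 (-4.61) were not.

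**Figure D2:**
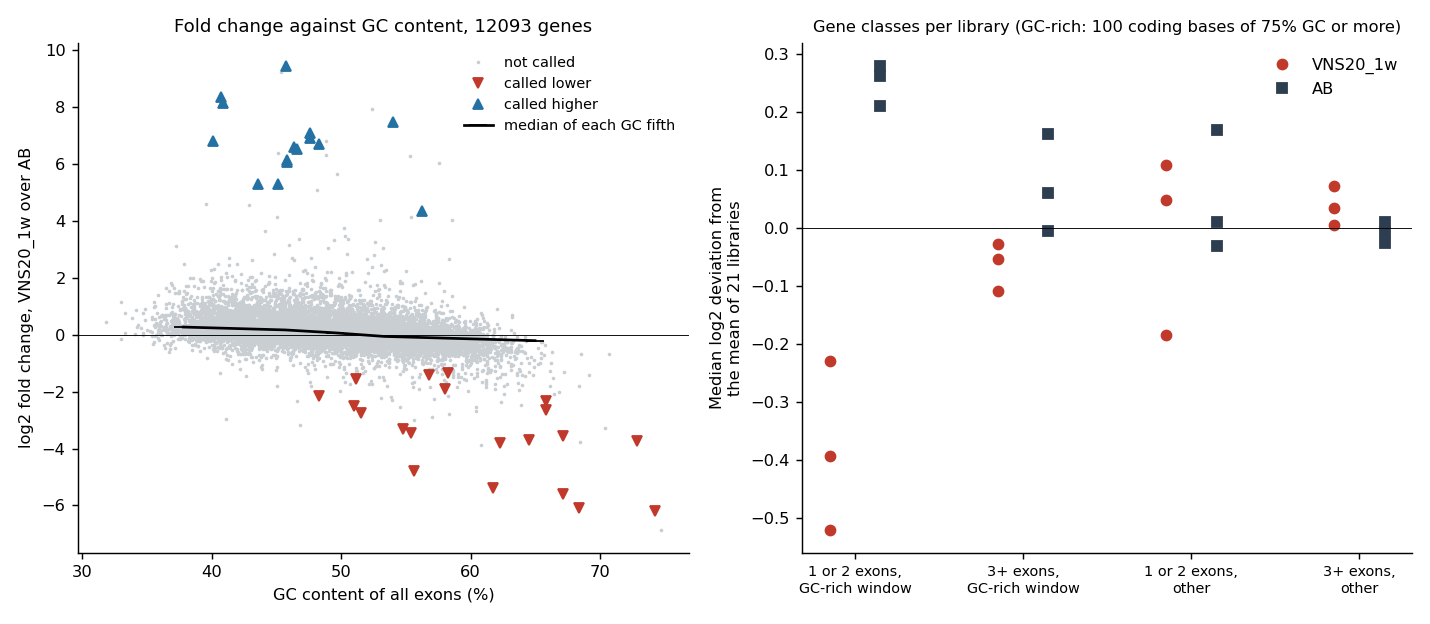
Left, log2 fold change of VNS20_1w over AB against the GC content of all exons, with called genes as triangles and a line through the medians of 5 GC classes. Right, the median log2 deviation of 4 gene classes in each library, VNS20_1w as circles and AB as squares. Of the 20 called falls, 15 lie in the GC-richest of the 5 classes, while Ado (48.3%) lies below the median of all tested genes (49.5%). On the right, the class with 1 or 2 exons and a GC-rich window is the one in which the libraries of VNS20_1w (-0.52 to -0.23) and AB (0.21 to 0.28) lie farthest apart. The limits of that class were set after the falls were seen, and it holds 15 of them.

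The falls differed between the other groups, as levels relative to the AB mean that was used to choose them. The median over the 20 genes was 9.64% of the AB mean in VNS20_1w, 26.9% in VNS20_2w, 70.7% in VNS20_4w, 77.8% in VNS10_1w, 74.8% in AB_Implant and 47.1% in Sham. Cebpb had 48.4, 31.4 and 66.1 CPM in VNS10_1w, 44.8, 38.9 and 34.7 CPM in AB_Implant, and 1.24, 1.98 and 4.11 CPM in Sham. Its VNS20_1w libraries thus overlapped the Sham range and lay below every VNS10_1w and AB_Implant library. Hnrnpa0 had 32.7, 32.4 and 38.1 CPM in VNS10_1w, 28.4, 28.7 and 32.6 CPM in AB_Implant and a scattered 8.76, 14.7 and 30.6 CPM in Sham. Mrfap1 had 35.8, 42.1 and 51.7 CPM in Sham. In both Hnrnpa0 and Mrfap1 every Sham library was above the VNS20_1w libraries.

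Set directly against VNS10_1w, VNS20_1w had 10 genes lower and 2 higher (0.0826% and 0.0165% of tested genes), and 9 of the 20 falls were among the 10. Set against AB_Implant, the banded group that carried the silent device, VNS20_1w had 22 genes higher and 34 lower (0.182% and 0.281%), among them 14 of the 15 rises (all but Serpinc1) and 12 of the 20 falls, with Cebpb at -5.55, Hnrnpa0 at -3.14 and Jund at -3.16. Both comparisons share the VNS20_1w libraries with the one described here. In AB_Implant against AB, which shares the AB libraries, the median log2 fold change was -0.42 over the 20 falls and -0.21 over the 15 rises, against 0.01 over all tested genes.

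**Figure D3:**
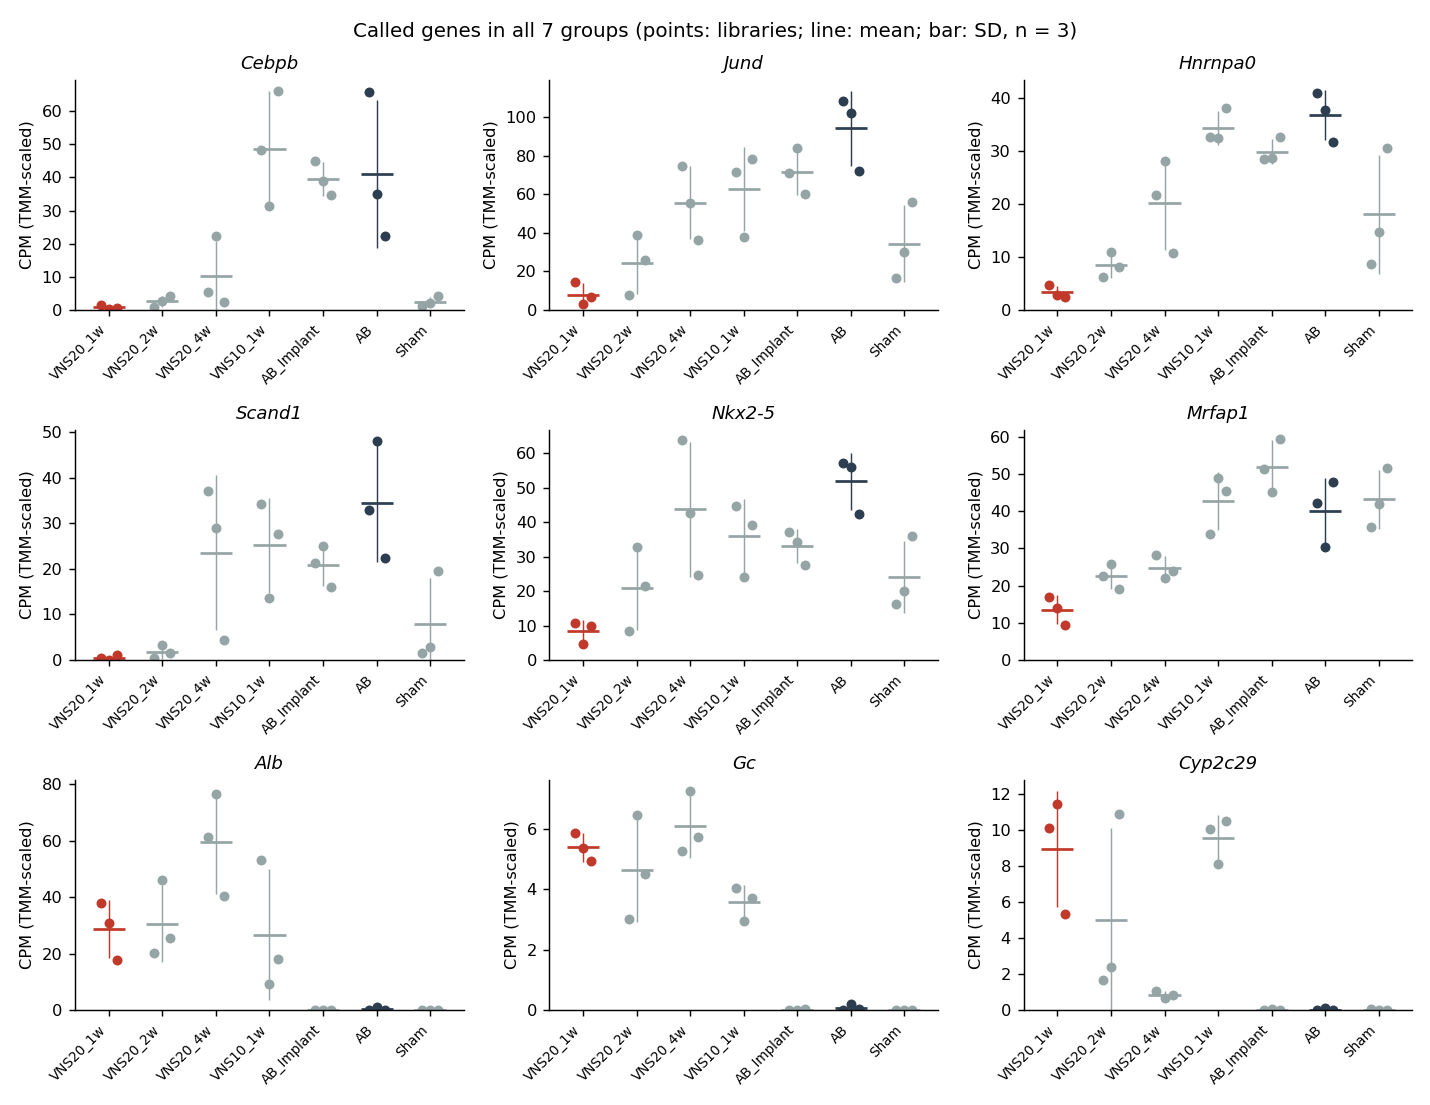
TMM-scaled CPM of 6 falls and 3 rises in every library of 7 groups, with the group mean as a line and the SD (n = 3) as a bar, on linear axes that start at 0. Cebpb is low in VNS20_1w, VNS20_2w and Sham, and Scand1 in VNS20_1w, VNS20_2w and 2 of 3 Sham libraries, while Alb and Gc are high in the 4 stimulated groups and near 0 in AB_Implant, AB and Sham.

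Beyond the liver genes, called members occurred in 3 of the lists examined. For the counts of members in each list, the background is that 55.3% of all tested genes had a positive fold change. At an unadjusted p under 0.05, 1.63% of all tested genes were higher and 2.67% lower. The immediate early genes, which answer growth signals and stretch within minutes, had 1 of 27 tested members lower (Jund) and 0 higher. Their median log2 fold change was -0.52, the lowest of the lists with at least 4 tested members, against 0.05 for all tested genes, and 5 of the 27 were positive. At an unadjusted p under 0.05, 8 of the 27 were lower and 0 higher, against 2.67% and 1.63% of all tested genes. Ier2, an immediate early nuclear protein, had 4.23, 2.30 and 4.43 CPM in VNS20_1w, against 15.1, 11.04 and 8.66 CPM in AB (-1.67 ± 0.44, adjusted p = 0.21). Ier5, of the same family, had 7.83, 7.54 and 4.33 CPM in VNS20_1w, against 20.6, 20.3 and 20.5 CPM in AB (-1.63 ± 0.44, adjusted p = 0.231). In both the groups did not overlap and both are single-exon genes, but neither passed the edgeR test, while DESeq2 called both. Named after their values were seen, Ier2 has an exon GC content of 60.9% and Ier5 of 52.3%.

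The C/EBP family had 1 of 7 tested members lower (Cebpb), a median of -0.20 and 3 positive members. The core cardiac transcription factors had 1 of 20 lower (Nkx2-5), with 10 positive and 10 negative members and a median of -0.06. Srf, the serum response factor, named after its values were seen, had 25.9, 22.2 and 21.9 CPM in VNS20_1w, against 45.1, 36.2 and 46.4 CPM in AB (-0.87 ± 0.23, adjusted p = 0.192), again with no overlap. DESeq2 called Srf as well as Nkx2-5. The list was split in direction, with Nkx2-5 alone past the edgeR threshold.

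The natriuretic and fetal genes and the stretch and Z-disc genes had no called member in edgeR, DESeq2 or limma voom. The natriuretic and fetal genes had 0 of 19 called (1 lower at an unadjusted p under 0.05), 5 positive and a median of -0.24. The stretch and Z-disc genes had 0 of 16 called (1 lower at an unadjusted p under 0.05), 2 positive and a median of -0.25. Nppb, brain natriuretic peptide, had 483, 215 and 494 CPM in VNS20_1w, against 104, 1200 and 1171 CPM in AB (-1.05 ± 0.77, adjusted p = 0.974). Acta1, skeletal actin, had 2876, 670 and 768 CPM in VNS20_1w, against 490, 5544 and 3841 CPM in AB (-1.19 ± 0.85, adjusted p = 0.974). AB replicate 1 was the low library in both, below every VNS20_1w library, so the groups overlapped. Nppa, atrial natriuretic peptide, averaged 642 ± 357 CPM in VNS20_1w and 915 ± 548 CPM in AB (SD, n = 3), and Ankrd1, a stretch-responsive cofactor, averaged 1344 ± 265 CPM in VNS20_1w and 1298 ± 619 CPM in AB. Myh7 and Myh6, the slow and fast myosin heavy chains, had log2 fold changes of 0.33 and 0.07, and Atp2a2, which pumps calcium into the sarcoplasmic reticulum, 0.17. Cited4, a transcriptional cofactor with 1 exon, had 9.41, 2.30 and 7.46 CPM in VNS20_1w, against 17.9, 22.5 and 14.5 CPM in AB (-1.52 ± 0.45, adjusted p = 0.41).

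Calcium handling genes had 0 of 14 called in edgeR (1 lower at an unadjusted p under 0.05), with 11 positive and a median of 0.14. Jph2, which tethers the sarcoplasmic reticulum to the cell membrane, went the other way at 75.7, 92.6 and 69.6 CPM in VNS20_1w, against 178, 105 and 160 CPM in AB (-0.90 ± 0.23, adjusted p = 0.157), and DESeq2 and limma voom called it. Extracellular matrix genes had 0 of 39 called in edgeR, DESeq2 and limma voom (1 lower at an unadjusted p under 0.05), 9 positive and a median of -0.22. Col1a1, a fibrillar collagen, averaged 57.6 ± 17.5 CPM in VNS20_1w and 80.8 ± 35.8 CPM in AB, and Col3a1, another, averaged 109 ± 19.0 CPM in VNS20_1w and 141 ± 56.3 CPM in AB. Postn, the matrix protein periostin, had a log2 fold change of -0.22 and Timp1, a protease inhibitor, of -1.09, both with overlapping groups.

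Genes of the nerve's own signalling were not called. The cholinergic and muscarinic list had 0 of 10 tested members called (0 at an unadjusted p under 0.05, and 0 in DESeq2 and limma voom) and a median of 0.21, and 11 of its 21 genes were too low to test. Chrm2, the muscarinic receptor of heart muscle, had 1.83, 16.6 and 1.21 CPM in VNS20_1w, against 3.09, 0.591 and 3.86 CPM in AB (1.37 ± 1.05, adjusted p = 0.974). The high value was replicate 2 alone, and without it the log2 fold change was -0.73. The adrenergic list had 0 of 18 called (1 lower at an unadjusted p under 0.05, and 0 in DESeq2 and limma voom) and a median of 0.18. Adrb1, the main beta receptor of the heart and a single-exon gene, had 1.96, 1.93 and 1.51 CPM in VNS20_1w, against 4.94, 2.27 and 4.14 CPM in AB (-1.07 ± 0.49, adjusted p = 0.974).

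Heat shock chaperones had 0 of 17 called (2 lower at an unadjusted p under 0.05, and 0 in DESeq2 and limma voom), 3 positive and a median of -0.34. Hspa1a, an inducible chaperone, had 1.14, 0.374 and 0.302 CPM in VNS20_1w, against 2.06, 1.68 and 3.03 CPM in AB (-1.85 ± 0.76, adjusted p = 0.974). Those groups did not overlap. In AB_Implant Hspa1a averaged 38.8 CPM, from which VNS20_1w differed by -5.94 on the log2 scale (adjusted p = 0.00118), while AB_Implant against AB did not pass the test (adjusted p = 0.117). Its near-identical neighbour Hspa1b may share its reads. Nrp1, a co-receptor of VEGF and semaphorins, averaged 62.4 ± 6.90 CPM in VNS20_1w, 29.5 CPM in AB_Implant and 56.5 ± 1.21 CPM in AB, with a log2 fold change against AB of 0.14. Irx4, a ventricular homeobox factor, averaged 24.3 ± 4.12 CPM in VNS20_1w, 13.7 CPM in AB_Implant and 28.7 ± 1.47 CPM in AB, with a log2 fold change against AB of -0.24. VNS20_1w was higher than AB_Implant in both (adjusted p = 0.00735 for Nrp1 and 0.042 for Irx4), and AB_Implant against AB did not pass the test in either (adjusted p = 0.121 and 0.109).

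Inflammatory mediators had 0 of 17 tested members called (0 at an unadjusted p under 0.05, and 0 in DESeq2 and limma voom). Of the 17, 16 were positive, against 55.3% of all tested genes, and the median was 1.02. The summed level of the list overlapped, at 109, 140 and 118 CPM in VNS20_1w and 123, 102 and 82.2 CPM in AB. In the members of smallest p, VNS20_1w replicate 2 was the high library. Tnfaip3 had 1.14, 3.80 and 0.504 CPM and Osmr 5.87, 13.8 and 3.33 CPM in VNS20_1w, and in both the groups overlapped. Il1b, interleukin-1 beta, had 0.253, 0.81 and 0.806 CPM in VNS20_1w, against 0.411, 0.296 and 0.276 CPM in AB (0.89 ± 1.15, adjusted p = 0.974). Neutrophil markers were likewise positive, with 6 of 6 tested members positive, a median of 2.25 and 0 called in edgeR (1 called in DESeq2), and 6 of 12 too low to test. At an unadjusted p under 0.05, 4 of the 6 were higher, against 1.63% of all tested genes. S100a9, a neutrophil calcium-binding protein, had 1.64, 19.2 and 7.56 CPM in VNS20_1w, against 0.686, 0.394 and 0.497 CPM in AB (4.14 ± 0.93, adjusted p = 0.0799), the member that DESeq2 called. Replicate 2 was highest, and all 3 were above AB. The summed level of the 12 neutrophil markers was 4.48 to 50.3 CPM in VNS20_1w and 2.37 to 5.52 CPM in AB. The part of these cells in the inflammatory values was not tested.

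Markers of the resident cell types lay near the background. Medians were -0.01 for cardiomyocytes, 0.00 for fibroblasts, -0.10 for endothelium, 0.15 for smooth muscle and pericytes and 0.21 for macrophages, with 0 called in edgeR, DESeq2 and limma voom. At an unadjusted p under 0.05, 1 endothelial marker was lower and 1 macrophage marker higher. Of the blood lineages, red blood cell markers were positive in 7 of 7 with a median of 0.65, 1 at an unadjusted p under 0.05 and 0 called, and T and B cell markers had 0 tested members. Proliferation markers were positive in 12 of 13 with a median of 0.39, 1 at an unadjusted p under 0.05 and 0 called. Of all tested genes, 55.3% were positive. The lists of oxidative metabolism lay near the background, with medians of 0.03 for the respiratory chain and citric acid cycle, 0.04 for the mitochondrially encoded genes, -0.09 for fatty acid oxidation and -0.09 for glycolysis, and 0 called, at an unadjusted p under 0.05 too, in each.

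The other lists also had 0 called members in edgeR, DESeq2 and limma voom, and at an unadjusted p under 0.05 at most 2 members each, all lower. Medians were -0.36 for p53 and growth arrest, -0.23 for the unfolded protein response, 0.09 for NRF2 targets, -0.02 for cytosolic ribosomal proteins, 0.17 for interferon-stimulated genes, 0.20 for insulin and IGF signalling, 0.29 for the circadian clock and 0.27 for the VEGF system. Adult sarcomere genes stood at 0.02, and among the further cell types atrial myocytes stood at -0.03, nerve and Schwann cells at 0.13, skeletal muscle at 0.20, epicardium at 0.20 from 2 tested genes and adipocytes at -0.15 from 3.

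**Figure D4:**
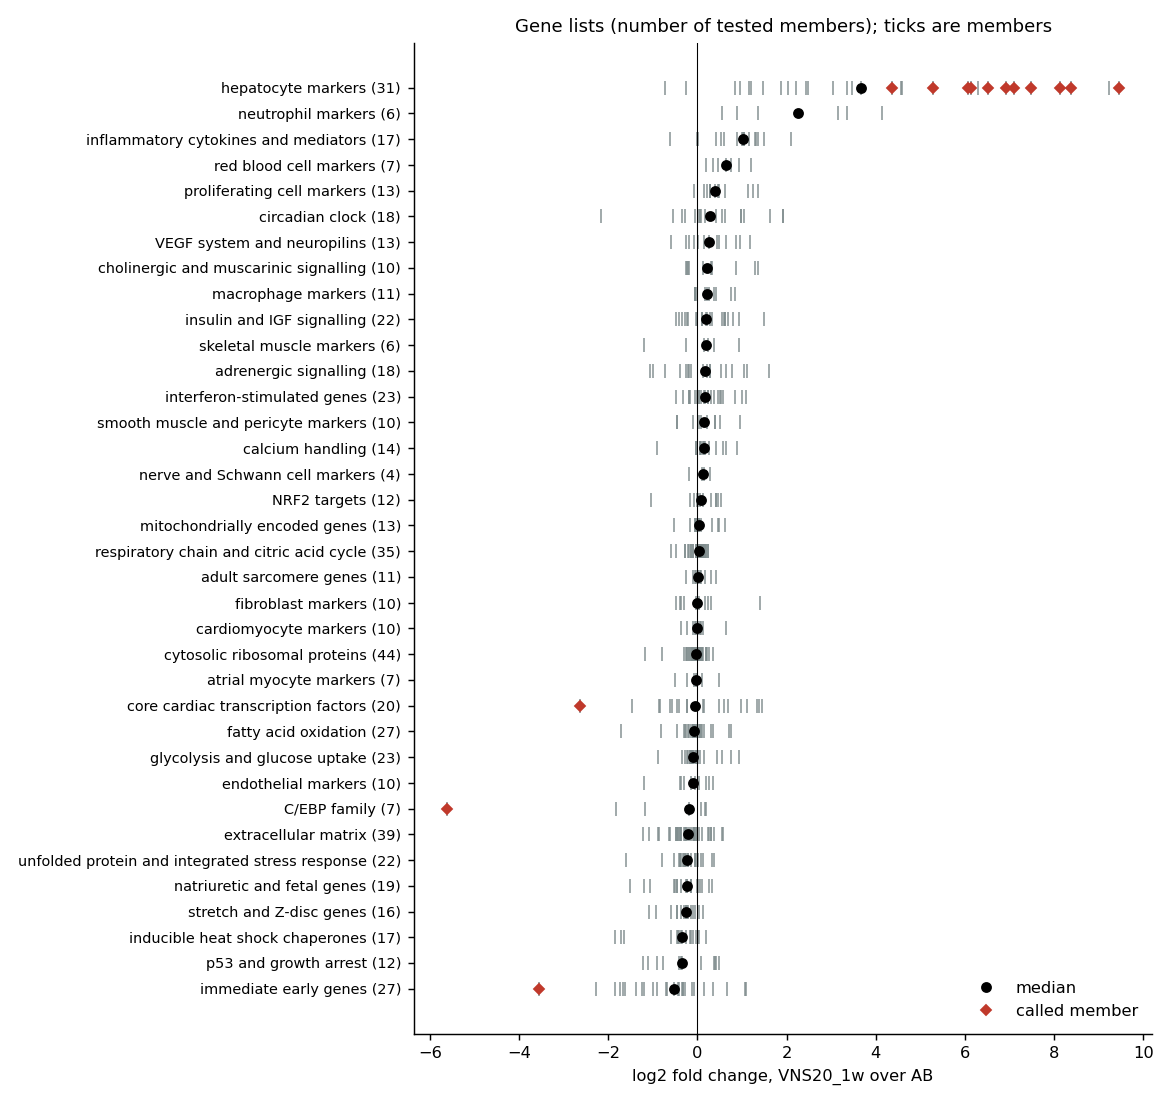
Log2 fold change of VNS20_1w over AB for each list with at least 4 tested members, with members as ticks, medians as black dots and called members as diamonds, ordered by median. Hepatocyte markers stand at the top (median 3.66, 11 called) and immediate early genes at the bottom (median -0.52), and called members outside the hepatocyte list number 3.

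The number of calls depended on the fit more than the named leaders did. DESeq2 called 86 genes, among them all 35, and a fit on the 6 libraries alone called 10, all among the 35. Of 26 alternative settings, Alb was called in 24, Cebpb and Hnrnpa0 in 25, Jund in 19 and Nkx2-5 in 14. Gc was called in 24 of the 25 settings that tested it. Eid2b and Ado, just inside the threshold, were called in 7 and 6 of 25. Just outside it were Cyp4a14, with 7.45, 5.42 and 1.71 CPM in VNS20_1w and 0 counts in AB, and the single-exon genes Inafm1 and Gas1 with log2 fold changes of -3.88 and -2.79 (adjusted p = 0.0541 each).

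**Figure D5:**
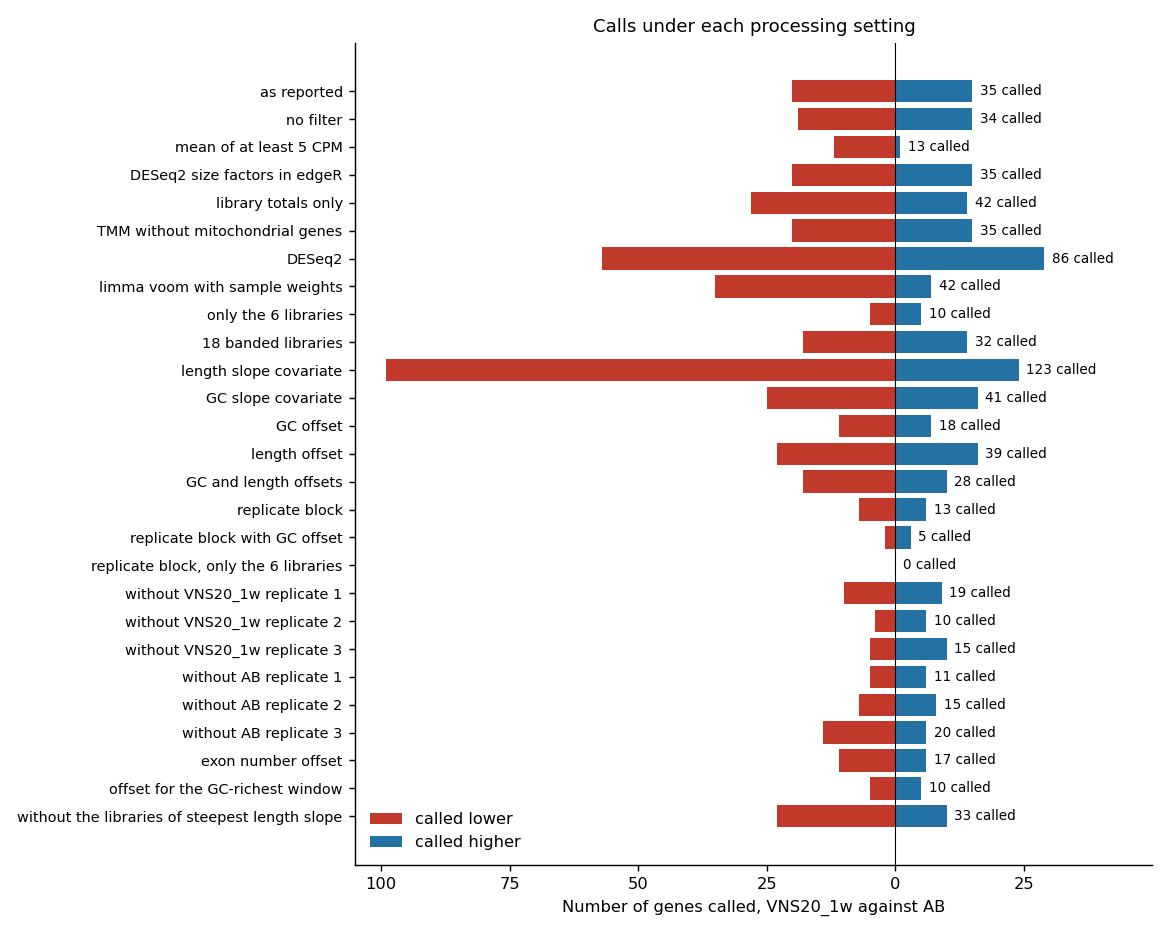
Number of genes called lower (left of 0) and higher (right of 0) in VNS20_1w against AB under each processing setting, with the total beside each bar. Totals run from 0 (replicate block on 6 libraries) to 123 (length slope as a covariate), and the fits without VNS20_1w replicate 2, on the 6 libraries, and with the richest-window offset each give 10.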

How the data were processed

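RNA was measured by poly(A)-selected, randomly primed, paired-end sequencing of left ventricle from 21 mice, per the labels' protocols. The submitters' processing notes name FastQC 0.11.9, cutadapt 1.11, HISAT2 2.1.0, featureCounts 1.6.0, edgeR 3.32.1, R 4.0.3 and build GRCm38, and strand handling is not given in the sources used here. The authors deposited 1 table of counts for 22136 genes. Its name speaks of normalized values, but 100% of the values are whole and library totals differ, so they were read as raw counts.

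Genes with at least 1 CPM in at least 3 libraries (12100 of 22136) were tested in edgeR 4.0.16 (R 4.3.3) with TMM scaling and a quasi-likelihood fit over all 7 groups, so that all 21 libraries share the estimate of spread. P-values were adjusted by Benjamini-Hochberg over all tested genes, and the SE was taken from the fold change and the F statistic. Ratios of summed counts carry exact 95% binomial (Clopper-Pearson) intervals, and a group at 0 was set to a floor of 3 counts over the group, both covering counting error only. GC content, exons and coding windows came from GENCODE M21 (GRCm38) and promoters from RefSeq (GRCm38.p6). DESeq2 1.42.0, limma 3.58.1 and offsets or covariates for GC content and length were alternatives. Every called gene that has its own symbol, 17 genes of the loaded heart, and up to 2 members of each list without a call were named. Members and lists were chosen with earlier results of these data known. The edgeR fit was tested on simulated counts with known log2 changes. It called 89.8% of genes made at -3 and 90.9% at 3, but 38.6% at -1.5 and 54% at 1.5, with 2 false calls. A list with 0 called members can therefore still hold changes of the smaller size. No libraries of a group were identical or within sampling noise. The replicates are labelled biological, but nothing ties a replicate number to a shared litter or day.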

Additional observations from a re-analysis of the deposited data

Results flagged for a closer look

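In 9 of the 20 falls the change against AB differed between the 2 stimulation schedules that began in week 1, by the edgeR quasi-likelihood test of VNS20_1w against VNS10_1w (Benjamini-Hochberg adjusted over all tested genes). Both changes share the AB libraries. The difference was -5.86 on the log2 scale for Cebpb (-5.61 in VNS20_1w and 0.25 in VNS10_1w against AB, adjusted p of the difference = 0.00851). It was -3.34 for Hnrnpa0 (-3.44 in VNS20_1w and -0.10 in VNS10_1w against AB, adjusted p = 0.00271) and -1.66 for Mrfap1 (-1.57 in VNS20_1w and 0.09 in VNS10_1w against AB, adjusted p = 0.00851). Scand1 differed by -5.62 (-6.08 in VNS20_1w and -0.45 in VNS10_1w against AB, adjusted p = 0.0492), Nudt3 by -4.97 (-4.80 in VNS20_1w and 0.17 in VNS10_1w against AB, adjusted p = 0.0228) and Pabpn1 by -3.003 (-2.75 in VNS20_1w and 0.25 in VNS10_1w against AB, adjusted p = 0.0282). Eid2b differed by -3.12 (-2.51 in VNS20_1w and 0.61 in VNS10_1w against AB, adjusted p = 0.0228), Gm9887 by -5.55 (-6.20 in VNS20_1w and -0.65 in VNS10_1w against AB, adjusted p = 0.00977) and BC029722 by -1.84 (-1.91 in VNS20_1w and -0.07 in VNS10_1w against AB, adjusted p = 0.0228). In each of the 9 the 3 VNS20_1w libraries lay below every AB library, as in all 20 falls, so this adds nothing about the 9. The falls were chosen for low VNS20_1w values against AB, which can also enlarge their difference from VNS10_1w.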

How the results depend on the processing

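Against 35 calls as reported (15 higher, 20 lower), DESeq2 gave 86 (29 higher, 57 lower), a covariate for each library's length slope 123 (24 and 99), a GC offset 18 (7 and 11), a minimum mean of 5 CPM 13 (1 and 12) and a fit on the 6 libraries alone 10 (5 and 5). Under the minimum mean of 5 CPM 7666 genes were tested, and of the 15 rises Alb alone was among them. Limma voom with sample weights gave 7 higher and 35 lower, scaling by library totals 14 and 28, and GC and length offsets 10 and 18. Of the alternatives chosen after seeing the data, an exon number offset gave 17 (6 and 11) and an offset for the richest window 10 (5 and 5). Leaving out 1 library at a time gave 10 to 20 calls (6 to 10 higher, 4 to 14 lower), with 19, 10 and 15 without VNS20_1w replicates 1, 2 and 3, and 11, 15 and 20 without AB replicates 1, 2 and 3. Of the alternative values of the called genes, 541 kept their call and 348 lost it, none turning sign. The cause of these differences was not tested.

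Correlations gave no sign of pairing by replicate number. Deviations of same-numbered VNS20_1w and AB libraries correlated at -0.116, -0.667 and -0.556, and no VNS20_1w library correlated best with the AB library of its own number. The length and GC slopes of single libraries enter these deviations, so the correlations cannot exclude a shared litter, day or batch. With the replicate number as a block there were 13 calls (6 and 7), with the block and a GC offset 5 (3 and 2), and with the block on the 6 libraries 0 (161 genes at an unadjusted p under 0.05).

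The median GC content of lower genes was 60.0% over all exons and 70.3% in coding sequence, which are different measures. With a library left out, the median over all exons was 55.4% to 62.0%. For higher genes it was 45.9% over all exons and 48.6% in coding sequence. Over all exons it was 45.2% for all higher genes at an unadjusted p under 0.05, and 45.775% to 45.8288% with a library left out. The median log2 fold change of the GC-richest of 5 classes turned to 0.00623 with the GC slope covariate, 0.00183 with GC and length offsets and 0.00306 with the replicate block and GC offset.

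Genes that were not called changed sign as follows, on the log2 scale. Under voom weights this gave Myh6 at -0.059, Acta1 at 0.057, Atp2a2 at -0.019, Postn at 0.27, Chrm2 at -0.30, Il1b at -0.15 and Nrp1 at -0.0011. With the length slope covariate this gave Atp2a2 at -0.0098, Ankrd1 at -0.024 and Chrm2 at -0.052. With the GC slope covariate this gave Myh6 at -0.041, Atp2a2 at -0.26, Ankrd1 at -0.18 and Chrm2 at -1.28. With the GC offset this gave Ankrd1 at -0.072, Irx4 at 0.15 and Nrp1 at -0.034. With the replicate block and the GC offset this gave Ankrd1 at -0.070, Irx4 at 0.15 and Nrp1 at -0.031. With the length offset this gave Myh6 at -0.065 and Nrp1 at -0.0077. With GC and length offsets this gave Atp2a2 at -0.029, Ankrd1 at -0.037, Irx4 at 0.19 and Nrp1 at -0.056. With the exon number offset this gave Myh6 at -0.0099 and Ankrd1 at -0.024. With the richest-window offset this gave Atp2a2 at -0.0034 and Ankrd1 at -0.075. The 3 libraries of steepest length slope were VNS20_1w replicate 2, VNS20_2w replicate 1 and VNS10_1w replicate 2. Leaving these 3 out gave Myh6 at -0.034, Atp2a2 at -0.084 and Chrm2 at -0.71. With 1 library left out, the lowest and highest values were -0.87 and 0.030 for Nppa, -0.060 and 0.23 for Myh6, -0.11 and 0.34 for Atp2a2, -0.27 and 0.42 for Ankrd1, -0.64 and 0.33 for Postn and -0.73 and 1.85 for Chrm2.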
